A study of Mus musculus with 16 samples.

Results

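The urea cycle turns ammonia released from amino acids into urea, and hepatocytes are the cells that run it as a whole. The enzymes Nags, Cps1 and Otc act in the mitochondrion, where Nags makes N-acetylglutamate, the obligate activator of Cps1, Cps1 makes carbamoyl phosphate from ammonia and bicarbonate, and Otc joins it to ornithine to give citrulline. The enzymes Ass1, Asl and Arg1 act in the cytosol, where they carry citrulline over argininosuccinate to arginine and split arginine into urea and ornithine, while the carriers Slc25a15 (ornithine and citrulline) and Slc25a13 (aspartate and glutamate) connect the compartments. These 8 genes were followed through 16 one-colour Agilent arrays of mouse liver. They were chosen by name, as the spots other than controls whose gene name on the array was 1 of the 8, and all 8 were among the 18474 genes tested. The tissue was liver of male C57BL/6 mice, 3 months old, in 4 groups of 4 arrays: glucocorticoid receptor (GR) liver knockout given dexamethasone, GR knockout without treatment, wild type given dexamethasone, and wild type without treatment. Dexamethasone is a synthetic glucocorticoid that activates this receptor, which the gene Nr3c1 encodes. The knockout titles hold the letters PBS as well, and a vehicle is named in the treatment protocol. Neither the driver of the liver deletion nor the dose, route and duration of dexamethasone was stated in the labels.

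Levels are log2 signals minus the log2 of the array's 75th percentile, so that 0 is the level of that percentile, and changes are differences of such levels. Genes with an adjusted p under 0.05 in limma (Benjamini-Hochberg, 18474 genes together) are named as called, and each adjusted p below is of that kind. The signal at the 75th percentile was 523.9 to 691.1 intensity units on 14 arrays, 400 on array 4 of untreated wild type and 309 on array 1 of untreated knockout. The last array had a mean correlation of 0.963 with its group, against 0.975 to 0.98 for the other 3. Each slide held 1 group and was scanned on its own, so an effect of slide cannot be told apart from one of group. The labels do not say which arrays come from separate animals, and p-values then measure the spread between these samples. Nr3c1, the targeted gene, averaged 0.17 ± 0.26 in treated knockout, 0.42 ± 0.13 in untreated knockout, 2.13 ± 0.15 in treated wild type and 2.40 ± 0.18 in untreated wild type (SD, n = 4 each). It was 3.9-fold lower in knockout than in wild type with dexamethasone and 3.96-fold lower without it (adjusted p = 6.3e-06 and 1.71e-05). Some comparisons below share arrays of a group, and each is given by its own values.

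The 8 genes were read by 12 probes, all above background on all 16 arrays, and the brightest probe of each gene was used. Positions are those written in the array files (build mm7), and exon or UTR annotation of that build was not used here. The single Cps1 probe lies on the plus strand at chr1:67470600-67470659, the single Arg1 probe on the minus strand at chr10:24669046-24669105, and the single Slc25a15 probe on the minus strand at chr8:21160309-21160368. The Asl probe is listed over chr5:129249917-129250502 and the Slc25a13 probe at chr6:5994368-5994427, both on the minus strand. The brighter Nags probe lies at chr11:102258443-102258501. Sequences are shown for Cps1 and Arg1, which were called lower in knockout with and without dexamethasone, for the carriers, which responded to it, and for Ass1 and Otc, whose probes are compared with each other. Both Ass1 probes are on chromosome 2, at chr2:31526070-31527709 for the brighter one, whose span exceeds its length, and chr2:31527690-31527748 for the other. Capitals mark the 20 bases they share, so they are not independent readings. The 3 Otc probes have no such overlap and lie at chrX:8753291-8753350 for the brightest (A_52_P286360), chrX:8709867-8733514 for A_51_P126563 and chrX:8749268-8749327 for A_52_P369776, all on the plus strand.
Cps1: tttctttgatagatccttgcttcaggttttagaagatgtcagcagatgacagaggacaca
Arg1: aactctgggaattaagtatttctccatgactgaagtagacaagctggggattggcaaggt
Slc25a15: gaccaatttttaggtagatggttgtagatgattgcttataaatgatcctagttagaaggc
Slc25a13: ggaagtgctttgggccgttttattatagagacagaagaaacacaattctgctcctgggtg
Ass1, A_52_P361165: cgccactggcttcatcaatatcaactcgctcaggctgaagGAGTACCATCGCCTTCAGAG
Ass1, A_51_P338713: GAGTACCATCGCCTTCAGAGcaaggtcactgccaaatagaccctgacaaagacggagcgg
Otc, A_52_P286360: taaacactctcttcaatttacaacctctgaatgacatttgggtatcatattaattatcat
Otc, A_51_P126563: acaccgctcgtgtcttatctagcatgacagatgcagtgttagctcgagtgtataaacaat
Otc, A_52_P369776: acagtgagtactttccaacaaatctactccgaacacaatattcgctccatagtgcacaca

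Under dexamethasone, the knockout liver had lower levels of 6 of the 8 genes than the wild-type liver: Cps1, Ass1, Asl, Arg1, Slc25a15 and Slc25a13. The falls ran from 1.78-fold for Ass1 to 3.44-fold for Slc25a15, and Nags and Otc were not called. None of the 8 was called higher, and the median change of the 8 was -0.96 on the log2 scale, against 0.09 over all genes tested. Of all genes tested, 8.21% were called lower in this comparison and 14.2% higher. For each of the 6 genes all treated knockout arrays lay below all treated wild-type arrays, as they did for 11.8% of all genes tested. The same 6 genes were called under each of the 13 alternative settings tried and with each of the 16 arrays left out in turn. In bulk liver RNA, fewer hepatocytes and less RNA per hepatocyte cannot be told apart.

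**Figure D1:**
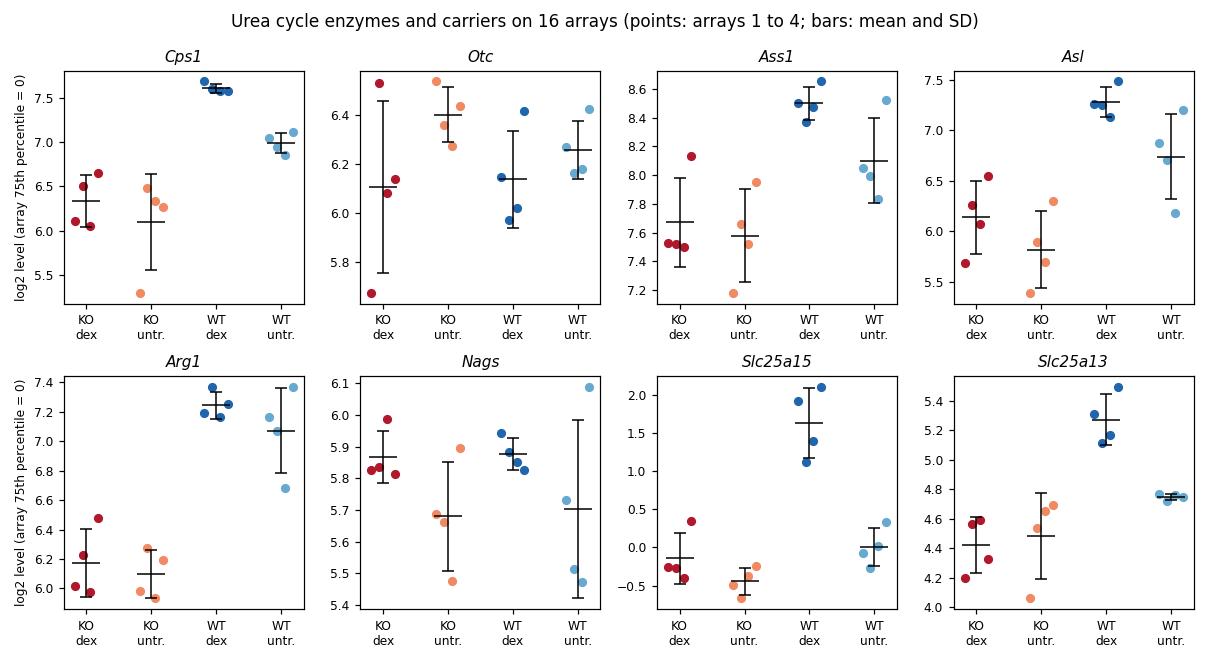
Level of each urea cycle gene on each of the 16 arrays (log2 signal over the array's 75th percentile), with 1 panel per gene, 1 point per array and bars at the group mean and SD (n = 4). For Cps1, Ass1, Asl, Arg1, Slc25a15 and Slc25a13 all 4 treated knockout arrays lie below all 4 treated wild-type arrays, while the points of Otc and Nags overlap.

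In the mitochondrial part of the cycle, Cps1 stood at 6.11, 6.50, 6.06 and 6.65 in treated knockout, against 7.68, 7.60, 7.57 and 7.58 in treated wild type (arrays 1 to 4). The groups did not overlap, and the treated wild-type arrays lay within a narrow range. The fall was 1.28 (SE 0.22), or 2.43-fold (adjusted p = 0.00105). Otc, which uses the carbamoyl phosphate made by Cps1, stood at 5.67, 6.53, 6.08 and 6.14 in treated knockout, against 6.14, 5.97, 6.02 and 6.41 in treated wild type. These arrays overlapped throughout, and the change was -0.03 (95% interval -0.38 to 0.31, adjusted p = 0.914). Nags, the source of the Cps1 activator, stood at 5.83, 5.83, 5.99 and 5.81 in treated knockout, against 5.94, 5.88, 5.85 and 5.82 in treated wild type. Its change was -0.01 (95% interval -0.30 to 0.28, adjusted p = 0.969), and its arrays overlapped.

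In the cytosolic part, Ass1, which joins citrulline to aspartate, stood at 7.53, 7.52, 7.50 and 8.14 in treated knockout, against 8.50, 8.37, 8.47 and 8.65 in treated wild type. Array 4 was the highest in each group, and the groups stayed apart. The fall was 0.83 (SE 0.19), or 1.78-fold (adjusted p = 0.00745). Asl, which releases arginine and fumarate from argininosuccinate, stood at 5.68, 6.26, 6.07 and 6.55 in treated knockout, against 7.26, 7.25, 7.13 and 7.49 in treated wild type. Every treated knockout array was below every treated wild-type array, and the fall was 1.14 (SE 0.24), or 2.21-fold (adjusted p = 0.00367). Arg1, which makes urea, stood at 6.02, 6.23, 5.97 and 6.48 in treated knockout, against 7.19, 7.37, 7.17 and 7.25 in treated wild type. The spread within each group was small beside the fall of 1.07 (SE 0.16), or 2.1-fold (adjusted p = 0.000367).

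Both carriers were lower as well. Slc25a15, also named ORC1, which brings ornithine into the mitochondrion in exchange for citrulline, stood at -0.26, -0.27, -0.41 and 0.35 in treated knockout, against 1.93, 1.12, 1.39 and 2.11 in treated wild type. It had the largest fall of the 8 genes, 1.78 (SE 0.22), or 3.44-fold (adjusted p = 0.000134). Slc25a13, also named citrin, which exports the aspartate that Ass1 uses, stood at 4.20, 4.56, 4.59 and 4.33 in treated knockout, against 5.31, 5.11, 5.17 and 5.50 in treated wild type. Its groups did not overlap, and the fall was 0.85 (SE 0.15), or 1.8-fold (adjusted p = 0.00124).

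Without dexamethasone, 2 of the 8 genes were called lower in knockout than in wild type, Arg1 and Cps1, and none was called higher. Of all genes tested, 0.752% were called lower and 2.82% in either direction. Arg1, Cps1 and Slc25a13 had all untreated knockout arrays below all untreated wild-type arrays, as did 3.65% of all genes tested. The median change of the 8 was -0.49, against 0.05 over all genes. Arg1 stood at 5.98, 6.27, 5.93 and 6.19 in untreated knockout, against 7.16, 7.07, 6.68 and 7.37 in untreated wild type. All untreated knockout arrays lay below all untreated wild-type arrays, and the fall was 0.98 (SE 0.16), or 1.97-fold (adjusted p = 0.00657). This call was kept with any single array left out, and it was lost in a fit of only these 2 groups (adjusted p = 0.0675, with 0.00136 to 0.0675 over the alternatives). Cps1 stood at 5.29, 6.48, 6.34 and 6.26 in untreated knockout, against 7.05, 6.94, 6.85 and 7.12 in untreated wild type. The groups were separate, and array 1 of the knockout, the dim one, was the lowest. The fall was 0.89 (SE 0.22), or 1.86-fold (adjusted p = 0.0406), and the call was lost with any 1 of 10 arrays left out, namely the 8 wild-type arrays, array 4 of untreated knockout and array 2 of treated knockout (adjusted p = 0.0518 to 0.0962). Without both dim arrays together the change was -0.58 (adjusted p = 0.0715, with 0.0135 to 0.16 over the alternatives). The Cps1 call was lost under 5 of the 13 alternatives.

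The other 6 genes did not pass the test in untreated liver. Asl stood at 5.38, 5.89, 5.70 and 6.30 in untreated knockout, against 6.88, 6.70, 6.18 and 7.20 in untreated wild type. The highest knockout array exceeded the lowest wild-type array, and the change was -0.92 (SE 0.24, adjusted p = 0.0506). It was called with any 1 of 4 arrays left out, namely array 3 of untreated wild type, array 4 of untreated knockout and arrays 1 and 4 of treated knockout, and without the first of these the change was -1.11 (adjusted p = 0.028, with 0.0105 to 0.202 over the alternatives). Under 7 of the 13 alternatives Asl was called lower. Ass1 stood at 7.18, 7.66, 7.52 and 7.95 in untreated knockout, against 7.84 to 8.52 in untreated wild type. These arrays also overlapped, with a change of -0.52 (adjusted p = 0.153). The changes of the carriers were -0.45 for Slc25a15 (adjusted p = 0.286) and -0.26 for Slc25a13 (adjusted p = 0.357). Otc and Nags had changes of 0.14 and -0.02 (adjusted p = 0.686 and 0.955).

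In wild-type liver, dexamethasone raised both carriers, and none of the 6 enzymes passed the test. Of all genes tested, 5.12% were called higher and 6.86% lower with dexamethasone. Slc25a15, Slc25a13 and Cps1 had all treated arrays above all untreated ones, as did 9.35% of all genes tested. The median change of the 8 was 0.46, against -0.04 over all genes. Slc25a15 stood at 1.93, 1.12, 1.39 and 2.11 in treated wild type, against -0.07, -0.26, 0.02 and 0.34 in untreated wild type. The groups were well apart, though the treated arrays spread widely. The rise was 1.63 (SE 0.22), or 3.1-fold (adjusted p = 0.000689), and it was 1.47 to 1.80 and called with any single array left out.

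Slc25a13 stood at 5.31, 5.11, 5.17 and 5.50 in treated wild type, against 4.77, 4.72, 4.76 and 4.75 in untreated wild type. Each treated array exceeded each untreated one, the untreated arrays being nearly equal. The rise was 0.52 (SE 0.15), or 1.44-fold (adjusted p = 0.0324), and the call was lost with any 1 of 7 arrays left out, namely the 4 untreated wild-type arrays and treated wild-type arrays 1, 3 and 4. The size then stayed between 0.45 and 0.56, with adjusted p of 0.0511 to 0.0908. Among the enzymes, Cps1 stood at 7.68, 7.60, 7.57 and 7.58 in treated wild type, against 7.05, 6.94, 6.85 and 7.12 in untreated wild type. Its arrays were separate, yet the change of 0.62 (SE 0.22) did not pass (adjusted p = 0.0784). Without array 1 of untreated knockout, whose spread enters the shared error of the fit, the adjusted p was 0.00605, and it was 0.00232 to 0.137 over the alternatives.

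Asl and Ass1 had changes of 0.54 and 0.40 with dexamethasone in wild type (adjusted p = 0.158 and 0.204). Without both dim arrays these were 0.70 and 0.54 (adjusted p = 0.0453 and 0.0379), and 5 of the 8 genes were then called. Calls over all genes rose under that setting too, with the counts given further below. Over the alternatives the adjusted p was 0.0326 to 0.25 for Asl and 0.0181 to 0.343 for Ass1. The changes of Arg1, Nags and Otc were 0.17, 0.17 and -0.12 (adjusted p = 0.525, 0.454 and 0.683).

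In knockout liver, none of the 8 genes was called with dexamethasone in limma, and on the brightest probes none had an unadjusted p under 0.05. Of all genes tested, 3.63% were called in this comparison. The median change of the 8 was 0.14, against -0.00 over all genes. Slc25a15 stood at -0.26, -0.27, -0.41 and 0.35 in treated knockout, against -0.49, -0.67, -0.38 and -0.24 in untreated knockout. The arrays overlapped, and the change was 0.30 (adjusted p = 0.555). The changes of the other 7 ran from -0.30 for Otc (adjusted p = 0.386) to 0.32 for Asl (adjusted p = 0.552), with 0.24 for Cps1 and -0.06 for Slc25a13 between them.

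Whether the dexamethasone response differed with genotype was tested as an interaction, the response in knockout minus that in wild type. Slc25a15 was the 1 member called, at -1.33 (SE 0.32, adjusted p = 0.0265). Of all genes tested, 2.69% were called with a lower response in knockout and 4.62% in either direction. The Slc25a15 call was lost with any 1 of 6 arrays left out, namely arrays 1 and 2 of untreated wild type, 1 and 4 of treated wild type, and 2 and 3 of treated knockout, where the value was -1.17 to -1.31 (adjusted p = 0.053 to 0.0616). For Slc25a13 the difference of the responses was -0.59 (SE 0.21, adjusted p = 0.143), and without array 1 of untreated knockout it was -0.73 (adjusted p = 0.0184, with 0.0144 to 0.312 over the alternatives). The differences of the 6 enzymes lay between -0.38 for Cps1 (adjusted p = 0.636) and 0.01 for Nags.

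**Figure D2:**
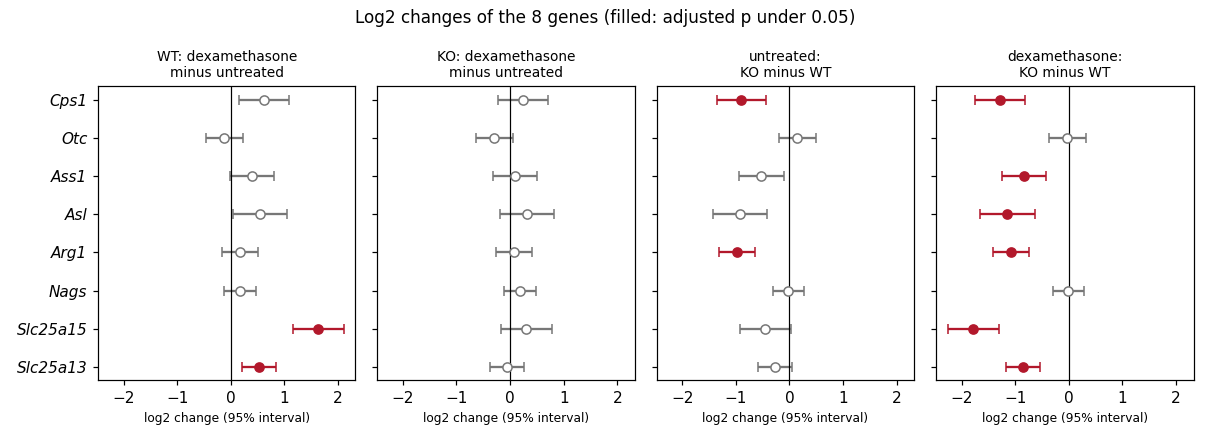
Change of each gene in the 4 comparisons between groups (log2, points at the estimate and bars at the 95% interval), with filled points for genes called at an adjusted p under 0.05. Under dexamethasone the 6 called genes lie between -1.78 and -0.83 in knockout against wild type, and Slc25a15 stands at 1.63 in the response of wild type and at 0.30 in that of knockout.

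The order of the group means was the same for Cps1, Ass1, Asl, Arg1 and Slc25a15: treated wild type, untreated wild type, treated knockout and untreated knockout, from high to low. Neighbours in that order had separate arrays at both upper steps for Cps1, at the middle step for Arg1 and at the top step for Slc25a15, and the ranges of all other neighbours overlapped. Slc25a13 had treated wild type above untreated wild type above untreated knockout above treated knockout, with both upper steps separate. Otc averaged 6.11 ± 0.35 in treated knockout, 6.40 ± 0.11 in untreated knockout, 6.14 ± 0.20 in treated wild type and 6.26 ± 0.12 in untreated wild type (SD, n = 4 each). Nags averaged 5.87 ± 0.08, 5.68 ± 0.17, 5.88 ± 0.05 and 5.70 ± 0.28 in treated knockout, untreated knockout, treated wild type and untreated wild type (SD, n = 4 each).

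Across the 16 arrays, Cps1, Ass1, Asl and Arg1 moved together, with Pearson correlations of 0.896 to 0.959 over their 6 pairs. With the group means removed the correlations were 0.546 to 0.873, so these 4 enzymes also varied together among arrays of the same group. The correlations of Otc with the other 7 genes were -0.2 to -0.0254, and with the group means removed they were 0.0869 to 0.483, so their sign turned. Slc25a15 and Slc25a13 had a correlation of 0.849, and of 0.279 with the group means removed. These values are descriptions, and the genes read on 1 array share its RNA, labelling and slide. The genes most like Slc25a15 over the 16 arrays were Slc25a51 and Stx7 (Pearson r = 0.971 each) and Plin5 (0.967), and those most like Arg1 were Fbxo31 (0.961), Cpm and Urad (0.952 each).

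The probes of Otc did not give the same readout. The dimmest, A_52_P369776, stood at -1.92, -1.10, -1.72 and -1.87 in treated knockout, against -2.43, -2.61, -2.64 and -2.27 in treated wild type. Its groups did not overlap, and in a fit of all 26794 probes it was higher in knockout by 0.83 (SE 0.18, adjusted p = 0.00569). In untreated wild type it stood at -1.63, -1.99, -1.85 and -1.65, above every treated wild-type array, and its change with dexamethasone was -0.71 (SE 0.18, adjusted p = 0.0223). Neither of the other Otc probes was called in any comparison. The dimmest probe was designed on another transcript record than the brightest, and which transcript it reads was not tested. For Ass1 the second probe was also called lower in treated knockout than in treated wild type, at -0.68 (SE 0.19, adjusted p = 0.0182). The second Nags probe was not called, with a change of -0.17 in the same comparison (adjusted p = 0.568). With dexamethasone in knockout the change of that probe was 0.47 (limma, unadjusted p = 0.026, adjusted p = 0.238).

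**Figure D3:**
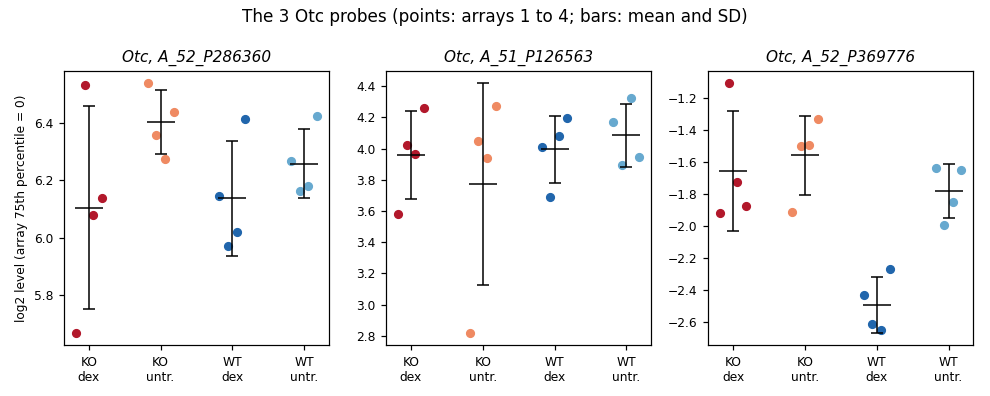
Levels of the 3 Otc probes on each array (log2 signal over the array's 75th percentile), with 1 panel per probe, 1 point per array and bars at the group mean and SD (n = 4). On A_52_P369776 the treated wild-type arrays lie between -2.64 and -2.27, below all arrays of the other 3 groups, while the groups overlap on the other probes.

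Of 28 genes listed for nitrogen handling around the cycle, 26 were tested. Under dexamethasone, 12 of them were called in knockout against wild type, 4 higher and 8 lower, with a median of -0.11. The shares over all genes tested were 14.2% higher and 8.21% lower. Slc38a2, an amino acid transporter of the system A type, averaged 3.42 ± 0.15 in treated knockout and 4.92 ± 0.52 in treated wild type (SD, n = 4 each), a 2.84-fold fall (SE of the log2 change 0.26, adjusted p = 0.00123). Slc38a3, which carries glutamine, averaged 7.11 ± 0.20 in treated knockout and 6.28 ± 0.17 in treated wild type, a rise of 0.84 (SE 0.16, adjusted p = 0.00187). Gpt2, the mitochondrial alanine aminotransferase, fell by 1.11 (SE 0.25, adjusted p = 0.00628). Slc7a2, a carrier of arginine and ornithine, fell by 1.14 (SE 0.26, adjusted p = 0.00648).

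With dexamethasone in wild type, 2 of the 26 were called higher and 2 lower. These counts are near the shares over all genes tested, 5.12% higher and 6.86% lower. Odc1, which draws ornithine into polyamine synthesis, averaged 6.32 ± 0.20 in treated wild type and 5.09 ± 0.25 in untreated wild type (SD, n = 4 each), a rise of 1.24 (SE 0.23, adjusted p = 0.00324). Gpt2 rose by 0.93 (SE 0.25, adjusted p = 0.0252), a call lost with any 1 of arrays 1, 2 and 3 of untreated or 1 and 4 of treated wild type left out. Slc38a3 fell by 0.75 (SE 0.16, adjusted p = 0.00669). Slc25a2, the other mitochondrial ornithine carrier, fell by 1.33 (SE 0.32, adjusted p = 0.0139), with 3 of 4 treated and 4 of 4 untreated arrays above background. With normexp background correction its change was -0.59 and was not called. Without dexamethasone, Slc38a2 was the only 1 of the 26 called in knockout against wild type, at -1.26 (SE 0.26, adjusted p = 0.0216), a call lost with array 2 or 3 of untreated wild type or array 4 of untreated knockout left out, with normexp background correction and in a fit of only these groups. None was called with dexamethasone in knockout, and the 1 call in the interaction was Slc38a3 at 0.81 (adjusted p = 0.0497), which was lost with any 1 of 13 arrays left out, all but array 3 of untreated wild type and arrays 1 and 4 of untreated knockout, and under 4 of the alternatives.

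Among 9 regulators described for urea cycle genes, 8 were called in treated knockout against treated wild type, 6 lower and 2 higher (Gcgr and Cebpa). The median was -1.14, and these counts and the median include Nr3c1, the targeted gene. The shares over all genes tested were 8.21% lower and 14.2% higher. The Cebpa call was lost with any 1 of 8 arrays left out and under 3 alternatives. Besides Nr3c1 itself, Hnf4a, a hepatocyte nuclear receptor, averaged 3.41 ± 0.04 in treated knockout and 4.55 ± 0.17 in treated wild type (SD, n = 4 each), a fall of 1.14 (SE 0.17, adjusted p = 0.000437). Cebpb, a C/EBP family factor, fell by 1.36 (SE 0.21, adjusted p = 0.000485). Foxo1, a factor that insulin signalling restrains, fell by 1.22 (SE 0.20, adjusted p = 0.000887). In wild type with dexamethasone, Gcgr, the glucagon receptor, fell by 0.66 (SE 0.12, adjusted p = 0.00298), and Hnf4a rose by 0.58 (SE 0.17, adjusted p = 0.0374), a call lost with any 1 of 8 arrays left out, namely arrays 1, 2 and 3 of untreated wild type, the 4 of treated wild type and array 3 of treated knockout. It was also lost under 5 alternatives: normexp background correction, no filter on dim probes, the mean of a gene's probes, the replicate block and a fit of only these groups. With dexamethasone in knockout and in the interaction, none of the 9 was called, and in untreated knockout Nr3c1 was the only 1.

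**Figure D4:**
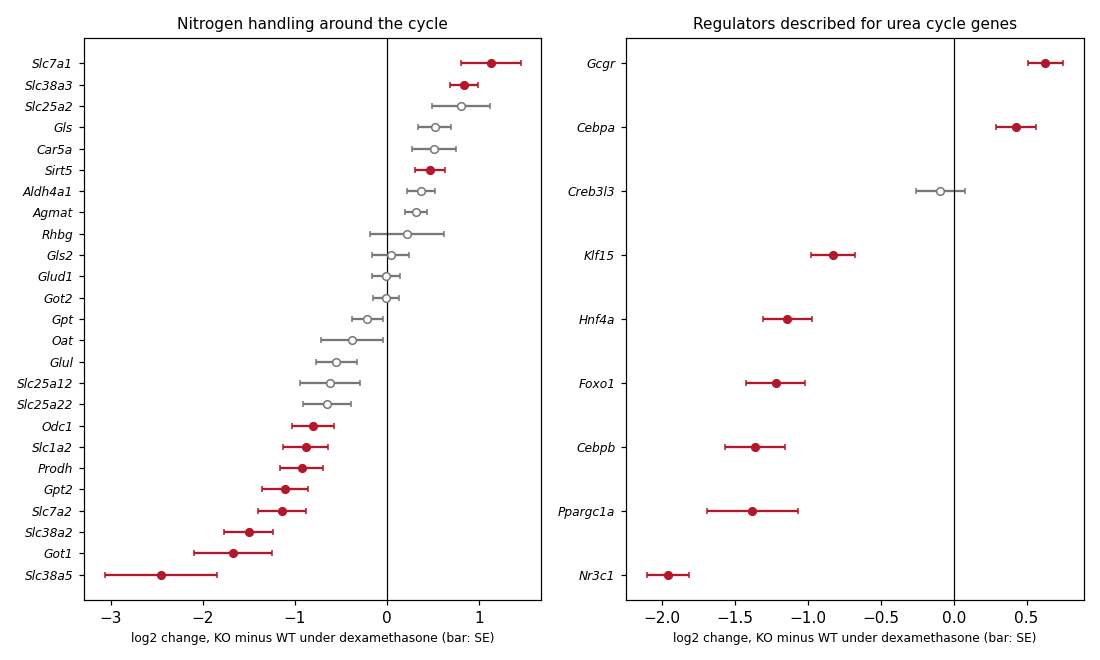
Change in treated knockout against treated wild type (log2, bars at the SE) for the genes that handle nitrogen around the cycle (left) and for the regulators (right), with filled red points for genes called at an adjusted p under 0.05. Aldh18a1, counted among the 4 called higher, is left out because none of the treated wild-type arrays was above background for it, and Slc38a5 was above background on 1 of 4 treated knockout arrays.

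Urea cycle enzymes are strongest in periportal hepatocytes, and cell markers were read beside them. In treated knockout against treated wild type, 8.21% of all genes tested were called lower and 14.2% higher. In that comparison, 2 of the 6 hepatocyte markers tested were called lower (Hnf4a and Apoa1). Their summed level, as a multiple of the 75th percentile, was 2260 to 2770 in treated knockout, 2320 to 3600 in untreated knockout, 2740 to 3130 in treated wild type and 2530 to 3870 in untreated wild type. Of 8 periportal markers, Sds and Pck1 were called lower and Cdh1 higher, with summed levels of 551 to 969 in treated knockout, 701 to 796 in untreated knockout, 827 to 1160 in treated wild type and 948 to 1150 in untreated wild type. None of the 8 periportal markers was called in untreated knockout against untreated wild type, although the sums, to which the brightest probes add most, did not overlap there. Between the treated groups the sums overlapped. Of 10 pericentral markers, Axin2, Slc1a2 and Cyp2e1 were called lower and Lgr5 higher, with summed levels of 370 to 499 in treated knockout, 455 to 643 in untreated knockout, 532 to 717 in treated wild type and 467 to 707 in untreated wild type. Pericentral sums did not overlap between the treated groups. The part of these markers in the falls of the urea cycle genes was not tested.

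Among markers of other liver and blood cells, none of the 7 of Kupffer cells and macrophages was called in the treated comparison. Their summed level was 50.6 to 92.5 in treated knockout, 67 to 133 in untreated knockout, 34.2 to 61 in treated wild type and 53.4 to 73 in untreated wild type. Neither the 5 endothelial, the 6 stellate nor the 3 neutrophil markers tested gave a call. Cd79a of 5 B cell markers and Alas2 of 2 erythroid markers tested were called higher, and Cd3e of 4 T cell markers and Krt7 of 5 cholangiocyte markers were called lower. The shares over all genes tested were 14.2% higher and 8.21% lower. The median change was 0.39 over the T cell markers and -0.38 over the cholangiocyte markers. T cell sums were 0.849 to 1.02 in treated knockout and 1.08 to 1.36 in treated wild type. Cholangiocyte sums were 14.4 to 63.8 and 10.4 to 19.6, with overlap. Elane, a neutrophil marker, was below background on all arrays.

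With dexamethasone in wild type, where both carriers rose, markers of other cells were called as well. The shares over all genes tested were 5.12% higher and 6.86% lower. Of 5 B cell markers, Cd79b was called lower, at -1.75 (SE 0.31, adjusted p = 0.00271), and Ms4a1, above background on 0 of 4 treated and 3 of 4 untreated arrays, was also called lower. The summed level of the B cell markers was 0.324 to 0.459 in treated wild type and 0.684 to 0.839 in untreated wild type, without overlap. Cd3g of 4 T cell, S100a9 of 3 neutrophil and Kdr of 5 endothelial markers were called lower, and Lyve1 of the endothelial and Sox9 of 5 cholangiocyte markers were called higher. Of the hepatocyte markers, Hnf4a was called higher, Cdh1 of the periportal and Lgr5 of the pericentral markers were called lower, and no Kupffer cell, stellate or erythroid marker was called. The part of these markers in the rise of the carriers was not tested. In knockout with dexamethasone, where neither carrier was called, Cd79b, Ms4a1, Cd3e, Kdr, Axin2 and Lgr5 were also called lower and Lyve1 higher. The share of all genes called there was 3.63%. The summed level of the B cell markers was 0.456 to 0.594 in treated knockout and 0.843 to 2.23 in untreated knockout, again without overlap. In untreated knockout against untreated wild type, the 1 marker called over all 11 lists was Apoa1, lower by 1.84-fold (adjusted p = 0.0201). The share of all genes called in that comparison was 2.82%. In the interaction, where 4.62% of all genes tested were called, Cdh1 was called higher and Axin2 and Cd3e lower.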

How the data were processed

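Liver RNA from 16 mouse samples was labelled with Cy3 and hybridised 1 sample per array, per the labels. The authors deposited each array's scanner output with processed intensity per spot, and the submitters' processing notes name Agilent Feature Extraction 9.5. The authors' deposited value table held the same processed intensity on a linear scale (column medians 35.4 to 60.76), uncentred. Processed intensity was converted to log2 and the 75th percentile over non-control spots was subtracted. Outlier-flagged spots (0.306%) were left out and spots of one probe averaged. Probes were kept when well above background on at least 3 of 4 arrays of any group (26794 probes), and the brightest probe per gene was used, naming 15155 of 18474 genes by symbol. limma 3.58.1 in R 4.3.3 fitted 4 group means (12 residual degrees of freedom), and it was tested on simulated data. The number of arrays limits the precision. The 8 genes, the gene lists and the tests were chosen with earlier results of these data known. Named were all 8 genes with each of their probes, and called cell markers. The 3 genes most correlated with the 2 members of smallest F-test p were also named. From the nitrogen and regulator lists, at most 4 called genes per comparison were named by smallest adjusted p. The 2 regulators called higher in treated knockout were named besides. Alternatives covered background correction, normalization, filter, probe choice, doubted arrays, array weights, the samples fitted, a replicate block and each array left out.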

Additional observations from a re-analysis of the deposited data

Results flagged for a closer look

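Slc25a15 had a dexamethasone response in knockout that was lower than that in wild type by 1.33 on the log2 scale, as a test of the difference itself (interaction -1.33, limma, adjusted p = 0.0265). Among 32 sets of 4 arrays, 1 array stood far from the other 3 in 2 sets, and chance flags about 1 in 20 sets. Ass1 had its highest treated knockout array, array 4, at 8.14, with a gap to the next array of 0.952 of the range. Nags had its highest treated knockout array, array 3, at 5.99, with a gap of 0.884 of the range.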

How the results depend on the processing

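Of the 8 genes, 6 were called in treated knockout against treated wild type and 0 with dexamethasone in knockout under all settings run, the replicate block included. The other counts moved. With dexamethasone in wild type (2 called), 1 was called with normexp background correction and with no filter on dim probes, 5 with array weights and 5 without array 1 of untreated knockout and array 4 of untreated wild type together, and 1 to 3 with single arrays left out. A fit of these groups only called Cps1 as well. In the interaction (1 called), normexp and no filter gave 0, array weights 3, leaving out both dim arrays 2, and single arrays left out 0 to 2. In untreated knockout against untreated wild type (2 called), normexp, no filter and leaving out both dim arrays gave 1, a fit of these groups only gave 0, and single arrays left out gave 1 to 3. Cps1 lost its call in each of these 4 alternatives and with quantile normalization. Asl gained a call there under 7 of the 13 alternatives. They were quantile normalization, the percentile over bright probes, the stricter filter, the mean of a gene's probes, trended variance, array weights and the replicate block. The replicate number as a block gave 4 there, against 2 in wild type and 1 in the interaction. No count over all genes is given here for the block, so the 4 are not read as particular to these genes. The titles do not state that the replicate number pairs samples, so it was not taken to pair animals. With group means removed, same-numbered arrays correlated at -0.186 to 0.347 (median 0.0762), with 10 of 24 pairs over 0.1. Arrays of different number were not set beside these, so the values cannot decide on pairing. No called change of the 8 genes reversed its direction, while small changes that were not called turned sign under some settings. Over the alternatives, Cps1 with dexamethasone in knockout ran from -0.10 to 0.29. Otc in treated knockout against treated wild type ran from -0.23 to 0.26. The value of 0.26 is the mean of the Otc probes, which takes in A_52_P369776, itself called at 0.83.

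Over all genes, the counts depended on the settings. The 2214 calls in wild type became 1203 with normexp, 5180 with array weights and 3382 without both dim arrays. The 671 calls in knockout with dexamethasone became 46, 1774 and 1076, with 1085 by quantile normalization, 419 with no filter and 135 in a fit of these groups only. The 853 interaction calls became 102 with normexp, 543 with no filter, 2768 with array weights and 1505 without both dim arrays. The 521 calls in untreated knockout became 84, 272, 1671 and, in a fit of these groups only, 90. The 4147 calls in treated knockout became 2384 with normexp and 6677 with array weights. With single arrays left out, the lowest counts were 1219, 313, 498 and 157 for the first 4 of these comparisons. In untreated knockout 382 genes were higher and 139 lower, against 46 and 38 with normexp; in the interaction these were 356 and 497, against 29 and 73 with normexp and 845 and 640 (1485 calls) without array 1 of untreated knockout. The causes were not tested. With 4 arrays in a group, small changes of Otc and Nags on their brightest probes remain within the intervals given. Otc probe A_52_P369776 was called at 0.83 in treated knockout against treated wild type, outside the Otc interval.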

Other observations

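Array 4, the fourth position of each slide, was the highest of its group in all 4 groups for Ass1, Asl and Slc25a15, 3 of the 8 genes (37.5%). The same held for 187 of 18450 genes (1.01%). Array 1 was the highest in all 4 groups for 203 genes (1.1%), array 2 for 36 (0.195%) and array 3 for 32 (0.173%).

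Promoter windows of 300 bases, 250 before and 50 after the transcript start (RefSeq, GRCm38.p6), were at hand for 5 of the 8 genes: Ass1, Nags, Otc, Slc25a13 and Slc25a15. They were searched on both strands for AGAACA, the half-site of the glucocorticoid receptor (19.0% of 32851 promoter windows hold it), for ACANNNTGT, its palindrome core, which can overlap that half-site (6.85%), and for the C/EBP motif TTGCNNAA (10.8%). None of these letters was in the windows of the 5 genes.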
